A study of Mus musculus with 4 samples.

Results

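The genes described here are the mouse beta-defensin genes, taken as every gene in the deposited count tables whose symbol is Defb followed only by digits. The rule found 42 genes among 32285. Their levels were read in epithelial nuclei of the library labelled BAT surgery, where a nucleus was called epithelial if it held a transcript of at least 2 of the 5 epithelial genes Epcam, Krt8, Krt18, Cdh1 and Esrp1. This gave 3590 of the 9159 nuclei kept in that library.

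Beta-defensins are small secreted cationic peptides held together by conserved disulphide bonds. They act against microbes, and several also bind receptors on host cells. In the epididymis, the coiled duct in which sperm mature, the principal cells of the epithelium secrete many of them into the lumen, where some coat the sperm surface, and which genes are active changes along the duct from initial segment and caput to corpus and cauda.

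The series held 4 single-nucleus libraries from mice on a high-fat diet, 1 each from brown adipose tissue (BAT) after sham surgery, BAT after surgery, beige adipose tissue (BeAT) after sham surgery and BeAT after surgery, as labelled. Its title names the operation as bariatric, and strain, sex and age are not stated. Each group had 1 library, so differences between groups have no replicate check, and every interval below is a 95% interval that covers counting error only. Kept nuclei numbered 9791 in BAT sham, 9760 in BeAT sham, 9159 in BAT surgery and 5328 in BeAT surgery, with medians of 3970, 3049, 5173 and 2654 UMIs (unique molecular identifiers, each counting 1 captured transcript), and the libraries' totals ran from 23118695 to 60409801 UMIs.

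The library labelled BAT surgery stood apart from its tissue label. Its epithelial nuclei held all 10 listed genes of the initial segment, all 9 of the caput and all 5 of the corpus and cauda at 2-fold or more above the non-epithelial classes of the same library. Of all 16316 genes tested in that way, 26.5% were called higher. Gpx5, a secreted glutathione peroxidase of the caput, was counted 232349 times over all its kept nuclei and 0 times in each of the other 3 libraries. Lcn8, an epididymal lipocalin, was counted 83102 times and 0 times in the others. Of 7 markers of seminal vesicle and prostate, the seminal vesicle secretory genes Svs2, Svs3a, Svs4, Svs5 and Svs6 had 0 UMIs in the epithelial nuclei, and the 7 summed to 2.28 CPM (UMIs per 1000000 UMIs of a set of nuclei). Only 1 of the 7 had enough UMIs to be compared, and it was higher in the epithelial nuclei, at a ratio of 10.4. The adipocyte-like class of this library still held 570 nuclei. Pairs of libraries shared between 36 and 72 cell barcodes.

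The 25 genes with at least 50 UMIs in the epithelial nuclei are described singly below. Upstream sequences are shown first for 6 of them. Apart from a mixed cluster described below, these had their highest levels in several groups of epithelial nuclei (Defb47 and Defb20 in the same one). Defb48 and Defb47 are also neighbours 13566 bases apart. Each line gives the 250 bases before the gene's start in RefSeq (build GRCm38.p6), on the gene's strand, 5′ to 3′. Capitals mark matches, on either strand, to TATAAA (the TATA box letters), TGTTCT (a core hexamer of androgen receptor elements, which reads AGAACA on the other strand) and AGGAAG (letters of an ETS factor site). None of the printed matches overlaps another.
Defb48 (chr14:62984511-62984760, minus strand): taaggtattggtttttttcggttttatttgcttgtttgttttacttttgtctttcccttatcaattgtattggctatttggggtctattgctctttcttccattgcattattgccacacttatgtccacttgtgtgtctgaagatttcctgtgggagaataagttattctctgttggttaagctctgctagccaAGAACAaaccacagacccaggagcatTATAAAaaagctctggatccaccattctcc
Defb47 (chr14:62997827-62998076, plus strand): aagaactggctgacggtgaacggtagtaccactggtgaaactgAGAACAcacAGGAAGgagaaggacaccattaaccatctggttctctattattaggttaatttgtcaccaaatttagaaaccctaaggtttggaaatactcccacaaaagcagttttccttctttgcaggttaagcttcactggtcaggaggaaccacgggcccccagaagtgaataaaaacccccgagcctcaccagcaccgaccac
Defb20 (chr2:152476813-152477062, plus strand): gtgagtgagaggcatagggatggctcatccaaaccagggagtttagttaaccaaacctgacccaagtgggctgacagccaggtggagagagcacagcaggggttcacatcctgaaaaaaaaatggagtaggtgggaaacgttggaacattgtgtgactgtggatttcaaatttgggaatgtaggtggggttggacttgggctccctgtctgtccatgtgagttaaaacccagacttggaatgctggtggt
Defb15 (chr8:21932711-21932960, minus strand): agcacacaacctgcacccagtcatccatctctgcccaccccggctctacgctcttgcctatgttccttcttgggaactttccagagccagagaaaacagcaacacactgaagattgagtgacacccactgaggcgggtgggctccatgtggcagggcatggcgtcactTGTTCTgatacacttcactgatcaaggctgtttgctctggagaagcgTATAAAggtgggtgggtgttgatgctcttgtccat
Defb39 (chr8:19064922-19065171, minus strand): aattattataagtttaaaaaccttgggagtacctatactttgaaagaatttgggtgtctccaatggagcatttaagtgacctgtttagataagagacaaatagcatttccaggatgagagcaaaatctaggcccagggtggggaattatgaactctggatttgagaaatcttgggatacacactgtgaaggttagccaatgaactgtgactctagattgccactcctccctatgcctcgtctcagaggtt
Defb23 (chr2:152464621-152464870, minus strand): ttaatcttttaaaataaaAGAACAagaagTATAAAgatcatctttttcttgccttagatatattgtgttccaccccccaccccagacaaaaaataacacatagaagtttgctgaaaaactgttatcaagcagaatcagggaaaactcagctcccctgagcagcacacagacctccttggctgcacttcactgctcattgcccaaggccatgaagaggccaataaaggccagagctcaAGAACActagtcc

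Defb48 and Defb15 both had the androgen receptor hexamer upstream of a TATAAA near the start. The first base of TATAAA lay 30 and 35 bases before the start, and that of the hexamer 56 and 82 bases before it. The hexamer lay in opposite orientations, as AGAACA in Defb48 and TGTTCT in Defb15. Defb47 had the hexamer at 207 bases and AGGAAG at 198. Defb23 had the hexamer at 13 and at 232 bases, and TATAAA at 221. Defb20 and Defb39 had none of the 3 in this window. The table of upstream sequences held 16 of the 25 described genes, in 17 entries. The hexamer was in 8 of the 17 (47.1%) against 16.1% of all 32841 upstream sequences of this length, TATAAA in 4 (23.5%) against 12.4%, and AGGAAG in 4 (23.5%) against 29.5%. These are matches of letters only, and no binding was measured.

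Beta-defensin transcripts made up 0.471% of all UMIs in the epithelial nuclei. Their sum was 140655 of 29875659 UMIs, or 4708 CPM (interval 4683 to 4733). A beta-defensin UMI was found in 98.6% of epithelial nuclei, with a median of 32 such UMIs from 7 different genes per nucleus, at a median depth of 7704 UMIs. The richest nucleus held UMIs of 21 of the genes. The other libraries gave almost none: 37 UMIs over all kept nuclei of BAT sham, 30 of BeAT sham and 24 of BeAT surgery, from 10, 7 and 9 of the genes, against 201135 from 39 genes in BAT surgery. The same epithelial rule found 47 nuclei in BAT sham, with 0 beta-defensin UMIs among 230692, which allows up to 13.004 CPM. It found 2 nuclei in BeAT surgery, also with 0, and 0 nuclei in BeAT sham.

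A few genes carried most of the sum. The highest 4 gave 55.4% of the beta-defensin UMIs and the highest 8 gave 82.8%. Defb47 (chr14:62998077-63001160) led at 717 CPM (707 to 727). Defb20 (chr2:152477063-152479934) followed at 644 (635 to 653). Defb41 (chr1:18250980-18265138) stood at 625 (616 to 634) and Defb48 (chr14:62977524-62984510) at 624 (615 to 633). The intervals of Defb41 and Defb48 overlapped almost fully, so their order is not set. Defb47 stayed first without the mixed cluster of nuclei described below (728) and thinned to 1000 UMIs per nucleus (785). The place of Defb20 did not hold: without that cluster it stood at 591, under Defb41 at 636 and Defb48 at 622, and thinned at 668, under Defb48 at 677. Levels are CPM without a length term, so they order transcripts counted and not transcripts per gene length.

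The middle of the range began with Defb15 at 386 and Defb42 at 369 CPM. Defb30 stood at 318, Defb25 at 215 and Defb12 at 199. Defb18 reached 136, Defb39 120.0 and Defb13 111. Defb42 was counted in the largest share of epithelial nuclei of any member, 81.8%, above Defb20 at 78.8% and Defb41 at 77.7%, although it ranked sixth by level. Defb48, with a level close to that of Defb41, was counted in only 52.0% of the nuclei.

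The low described genes ran from Defb21 at 44.4 CPM and Defb23 at 42.6 down to Defb35 at 1.67, which stood at the floor with 50 UMIs. Among them, Defb1, the constitutive beta-defensin of many epithelia, reached 24.8, Defb29 25.2 and Defb37 22.5. Defb45, Defb36, Defb2, Defb28 and Defb34 lay between 11.9 and 13.96, Defb19 at 7.63 and Defb10 at 5.86. Below the floor, 13 genes shared 220 UMIs. Just under it were Defb22, the counterpart of a primate defensin known to coat sperm, with 37 UMIs, Defb11 with 35 and Defb50 with 29. Defb26 had 24, Defb40 and Defb43 22 each, Defb9 15, Defb6 12, Defb14 11 and Defb3 7. Defb33, Defb38 and Defb4 had 2 each. Defb14, Defb3 and Defb4, which are known as inducible defensins of skin, airway and mouth epithelium, were therefore counted at most 11 times in 3590 nuclei. Defb46, Defb5, Defb7 and Defb8 had 0 UMIs, which for each allows up to about 3 counts in the whole epithelial set.

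**Figure D1:**
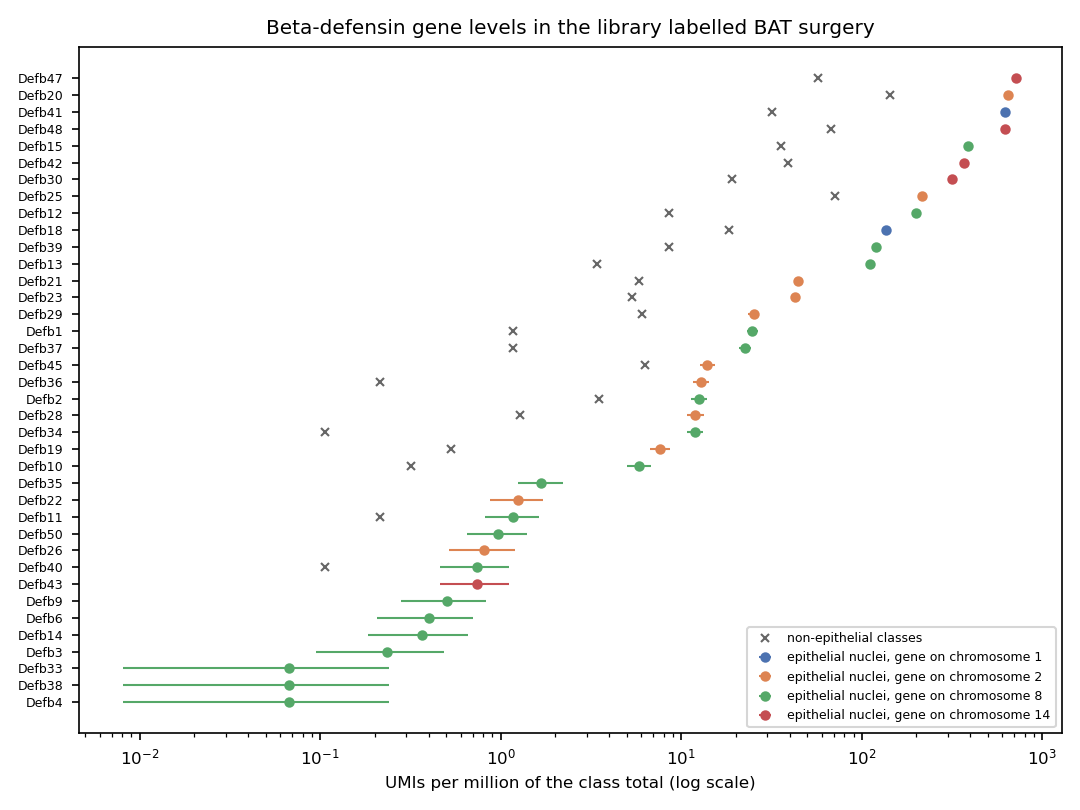
Level of each of the 38 beta-defensin genes with a UMI in epithelial nuclei (filled points, coloured by chromosome, bars are 95% counting intervals) and in the non-epithelial classes of the same library (crosses, genes at 0 there not drawn), in CPM on a log axis. Epithelial levels ran from 717 for Defb47 to 0.067 for Defb33, and each cross lies to the left of its gene's epithelial point.

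The genes lie in 4 blocks. Chromosome 14 held 5 of them and gave 43.1% of the beta-defensin UMIs. Chromosome 2 held 11 with 21.7%, chromosome 8 held 24 with 19.1% and chromosome 1 held 2 with 16.2%. Described genes numbered 4 of 5 on chromosome 14, 9 of 11 on chromosome 2, 10 of 24 on chromosome 8 and both on chromosome 1. All 4 genes at 0 lie on chromosome 8, between Defb6 and Defb33. Deletion of the run of chromosome 8 genes from Defb1 to Defb13 is known to leave male mice infertile. Defb30 and Defb42 lie on opposite strands and overlap by 2970 bases, and Defb15 lies inside the antisense gene Gm36879, which had 1598 UMIs of its own. Whether the counting used strand is not given in the sources used here, so reads in those overlaps cannot be assigned with certainty.

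To see where in the epithelium each gene was used, the epithelial nuclei were clustered without any beta-defensin gene, which gave 13 clusters. Clusters are named here by their leading genes, or as "-like" where the marker lists allowed it. The summed beta-defensin level was highest in cluster 8, led by Mup6, Gm3428 and Zmat4, at 8698 CPM, and in cluster 1, led by Slc1a1, Mup6 and Cldn14, at 7731. The initial segment-like cluster 3, with 858 nuclei led by Gria2, Gm32017 and Adam28, stood at 4789. Cluster 6 (Kcnh8, Pate13) stood at 4134, the corpus and cauda-like cluster 10 (BC048679, Kcnh8) at 4111 and cluster 7 (Kcnh8, Anks1b) at 4004. Cluster 12 (Gldc, Grid1) stood at 3643 with 17 nuclei, and cluster 2 (Lypd8, Topaz1) at 3055. The marker lists do not order these clusters cleanly: Rnase9, listed for the initial segment, stood at 16.5 CPM in cluster 3, and Crisp1, listed for corpus and cauda, at 430.0 there. Crisp1 was highest in cluster 12, at 1032, as was Spint4 of the same list, at 1621. Ces5a, Lcn12 and Rnase13 of that list were lower in cluster 12 than in cluster 10. The initial segment list was also the best for cluster 8, with 7 markers past 2-fold, the same number as in cluster 3. Its mean fell short of the cut for a name. Of the 442 nuclei of cluster 8, 280 fell in an initial segment-like cluster of the whole library. Of the 149 nuclei of cluster 1, 137 fell in a caput-like one. Of the 461 nuclei of cluster 6, 437 fell in a corpus and cauda-like one. Another corpus and cauda-like cluster of the whole library took 283 of the 373 nuclei of cluster 7 and 160 of the 161 of cluster 10. Of the 551 nuclei of cluster 2, 505 fell in an unnamed one.

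These 8 clusters, each at 3055 CPM or more, are called beta-defensin-rich below. The remaining named clusters and cluster 4 were low. The ciliated-like cluster stood at 1367 CPM and the basal-like cluster at 1346. Of the 33 ciliated-like nuclei, 32 fell in a ciliated-like cluster of the whole library, which also took 15 of the 17 nuclei of cluster 12. Defb1 gave 22.1% of the basal-like sum. Without Defb1 the basal-like level was 1049 CPM, inside the range of the non-epithelial classes given below, with 5.675 UMIs per nucleus. The clear or narrow-like cluster stood at 712 and cluster 4, led by Dcdc2a and Fgf13, at 602. Both of the last lay within the range of 390 to 1176 CPM of the non-epithelial classes. The clear or narrow-like nuclei had 7.47 beta-defensin UMIs each, more than the 1.68 to 2.90 of those classes, and 42.3% of their sum was Defb1. Without Defb1 their level was 411 CPM, with 4.31 UMIs per nucleus. Cluster 4 had 2.66 per nucleus, and its summed level is not read as expression. One unnamed cluster, number 0, with 217 nuclei led by Lyz2, Acta2 and Dcn, mixed macrophage, muscle and stromal genes with epithelial ones. It held 6910 CPM, 175 of its nuclei fell in a shallow unnamed cluster of the whole library, and its part in the results was not tested. Without it, the epithelial sum was 4565. Defb45 alone among described genes then moved by more than 1.5-fold, from 13.96 to 6.70.

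The leading defensins differed between the beta-defensin-rich clusters. In the initial segment-like cluster Defb48 stood at 2094 CPM (2059 to 2130) and was counted in 99.5% of nuclei. It stood at 817 in cluster 8, at 655 in the mixed cluster and 275 in the ciliated-like one, and between 29.7 and 222 in the other 9 clusters. Defb25 stood at 477 in cluster 3 and 361 in cluster 8, against 30.9 to 33.3 in clusters 2, 6, 7 and 10, and only the mixed cluster was higher, at 608. Defb36, a low gene, stood at 34.4 in cluster 3 and 25.3 in cluster 8, and at 1.66 in cluster 6.

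Defb47 marked the 2 clusters that share Mup6. It stood at 3709 CPM (3645 to 3774) in cluster 8 and 3165 (3070 to 3263) in cluster 1. The mixed cluster held 553, the initial segment-like one 250.2 and cluster 2 55.5. Defb20 was also highest there, at 1612 in cluster 8 and 1592 in cluster 1, with overlapping intervals, but it also stood at 1464 in the mixed cluster, 744 in cluster 3 and 548 in cluster 2. Defb18 reached 617 in cluster 1 and 416 in cluster 8, and 17.9 in cluster 3. Defb41, which lies 13536 bases from Defb18, was broader: 1263 in cluster 1, 1009 in cluster 8, 911 in cluster 2 and 632 in cluster 6, against 109.7 in cluster 10.

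Defb15 and Defb12 were highest, among clusters other than the mixed one, in cluster 6. Defb15 stood there at 1068 CPM (1039 to 1098), with 478 in cluster 7 and 461 in cluster 2, and at 21.4 in cluster 3. The mixed cluster held 1097, an interval that overlaps with cluster 6. Defb12 stood at 597 in cluster 6, 336 in cluster 7 and 194 in cluster 2. The low genes Defb34 and Defb19 had their highest levels there too, apart from the mixed cluster for Defb19, at 36.3 and 18.3.

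Another set was highest in the corpus and cauda-like cluster 10. Defb30 stood at 1076 there (1019 to 1135), at 1007 in cluster 12 and at 837 in cluster 7, against 42.7 in cluster 2. Defb39 stood at 578 in cluster 10 and 442 in cluster 7, against 3.74 in cluster 8, and Defb13 at 335 and 282. Defb21 reached 160.1 and 155, and Defb10 44.0 and 15.6, in the same 2 clusters. Defb37 stood at 60.8 in cluster 10 (47.9 to 76.1), 52.3 in cluster 6 (46.0 to 59.1) and 41.9 in cluster 7, so its highest cluster is not set. Defb23, a lower gene over all epithelial nuclei, stood at 1288 in cluster 12, an estimate from 151 UMIs in 17 nuclei (1091 to 1511), at 511 in cluster 10 (473 to 553), at 94.7 in cluster 7 and at most 8.73 in every other cluster except the mixed one at 33.5. Defb28 and Defb29 were likewise highest in cluster 12, at 171 and 179, and next in cluster 10, at 117 and 96.9.

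Defb42 was the even one. It lay between 282 and 503 CPM in all 8 beta-defensin-rich clusters (1, 2, 3, 6, 7, 8, 10 and 12), at 624 in the mixed one, and between 38.1 and 96.1 in the basal-like, clear or narrow-like, ciliated-like and Dcdc2a clusters.

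Defb1 reversed the pattern. It stood at 297 CPM (257 to 342) in the basal-like cluster and 301 (264 to 341) in the clear or narrow-like cluster, and was counted in 62.5% and 64.9% of their nuclei. In the 8 beta-defensin-rich clusters it lay between 1.39 and 8.53. It had 0 UMIs in the ciliated-like and Dcdc2a clusters, and 96.0 in the mixed one. Its level in the non-epithelial classes was 1.17 together and at most 4.23, in endothelial-like nuclei. With each nucleus thinned to 1000 UMIs, Defb1 was counted in 24.2% of basal-like and 24.7% of clear or narrow-like nuclei, and in at most 1.35% of nuclei in any of the 8 beta-defensin-rich clusters.

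**Figure D2:**
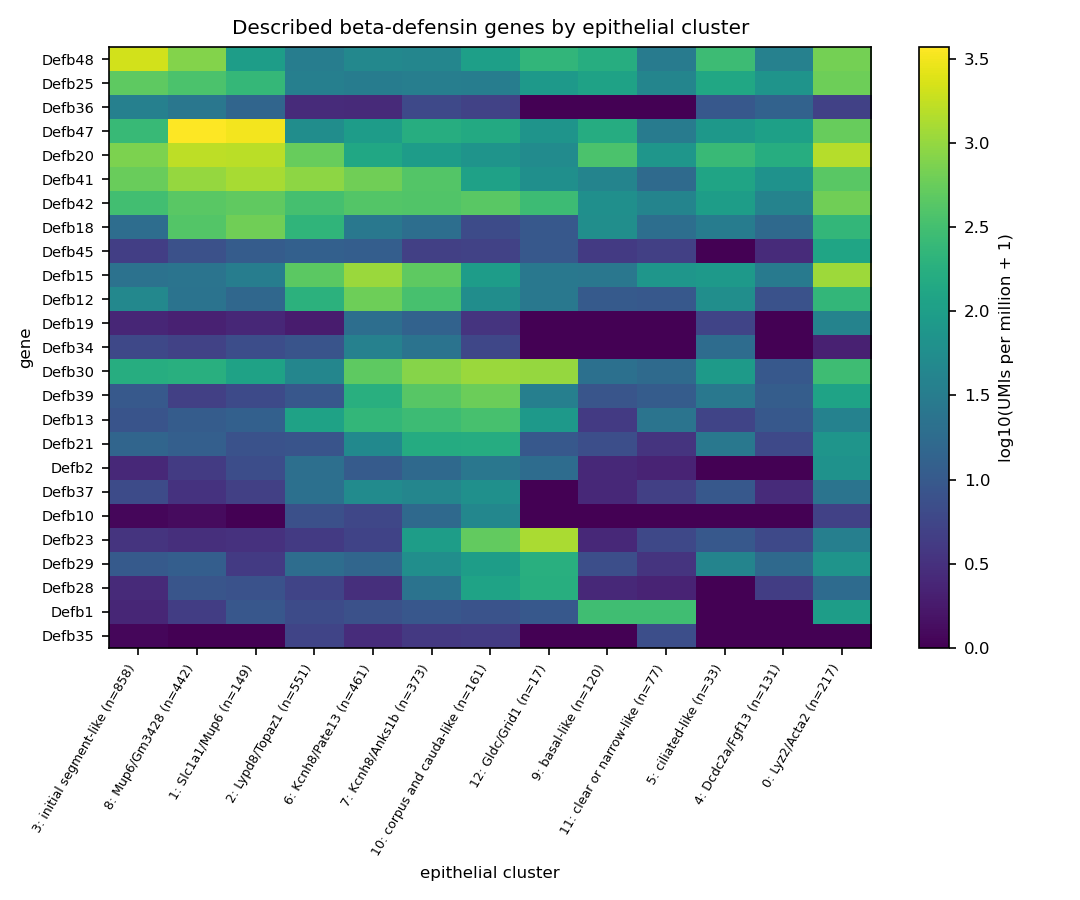
Level of the 25 described genes (rows) in the 13 epithelial clusters (columns, with the number of nuclei), as log10 of CPM plus 1. Bright blocks lie at Defb48 in the initial segment-like cluster, Defb47 and Defb20 in clusters 8 and 1, Defb15 in cluster 6, and Defb30 and Defb23 in clusters 10 and 12. Defb1 is bright only in the basal-like, clear or narrow-like and, less so, the mixed cluster. The column order is not a measured order along the duct.

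At least 50% of the summed cluster level lay in a single cluster for 3 of the 25 described genes, Defb23, Defb45 and Defb10, against 8.36% of the 15109 genes that could be scored, a share too near the background to say anything of the members. For Defb45 that cluster was the mixed one. The median share of the top cluster was 34.9% over the described genes and 18.03% over all genes scored. The count moved with the clustering, to 9 with coarser clusters and to 6 under several other choices.

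Some pairs of genes varied together between nuclei. Over 300 pairs of described genes, Pearson r of the log levels over 3590 nuclei had a median of 0.022, with 22 pairs at 0.3 or more. The highest pair was Defb48 with Defb25 at 0.61, although they lie on chromosomes 14 and 2. Defb15 with Defb12 reached 0.60, Defb30 with Defb39 0.59, Defb20 with Defb25 0.53 and Defb47 with Defb20 0.51. The lowest was Defb20 with Defb39 at -0.39. The nuclei share 1 library and differ in depth, so these are descriptions without a test.

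Inside single clusters of at least 300 nuclei the median r over the pairs lay between -0.0046 in cluster 8 and 0.027 in cluster 7. Defb47 with Defb20 had 0.45 inside cluster 8, and between -0.027 and 0.16 inside clusters 2, 3, 6 and 7. Defb15 with Defb12 had 0.37 inside cluster 2, 0.36 inside cluster 7 and 0.20 inside cluster 6, but -0.057 inside cluster 3 and 0.017 inside cluster 8. Defb48 with Defb25 ranged from 0.058 inside cluster 8 to 0.29 inside cluster 3. The most negative value was Defb47 with Defb48 inside cluster 8, at -0.67, where both genes were abundant. Defb48 also ran against Defb18 (-0.32) and Defb20 (-0.31) inside that cluster. Defb48 was counted in 62.7% of the nuclei of cluster 8, and 280 of its 442 nuclei fell in 1 cluster of the whole library. Whether cluster 8 holds more than 1 group of nuclei was not tested.

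Genes next to each other on a chromosome shared a highest cluster in a minority of cases. The median r was 0.053 for the 88 pairs on the same chromosome and 0.011 for the 212 pairs on different ones. Of 21 pairs of adjacent described genes, 6 (28.6%) had the same highest cluster when the mixed cluster was set aside, against 38 of all 300 pairs (12.7%), and their median r was 0.080 against 0.022. No test was made of that difference. Defb48 and Defb47, the adjacent pair shown above, had r = 0.069 over all epithelial nuclei and the -0.67 just given inside cluster 8, against -0.061 to 0.041 inside clusters 2, 3, 6 and 7. Defb23 and Defb20, 12442 bases apart on chromosome 2, had r = -0.24, with Defb23 highest in cluster 12 and Defb20 in cluster 8. Defb28 and Defb29 (0.25), Defb12 and Defb34 (0.17), and Defb18 and Defb41 (0.25) were adjacent pairs that did share a highest cluster.

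**Figure D3:**
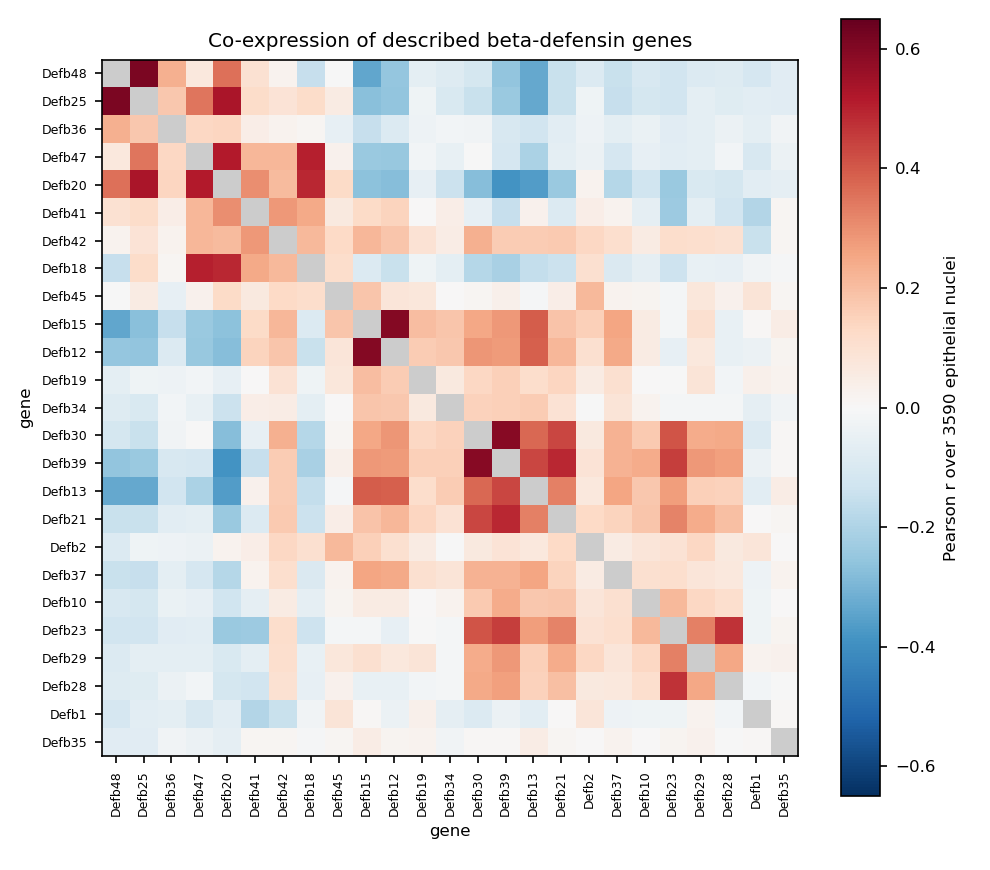
Pearson r between log levels of the 25 described genes over 3590 epithelial nuclei, with genes ordered by the cluster of their highest level and the diagonal in grey. Red blocks join Defb48 with Defb25, Defb47 with Defb20 and Defb18, Defb15 with Defb12, and Defb30 with Defb39 and Defb21, and the deepest blue cell, at -0.39, is Defb20 with Defb39.

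The genes outside the family whose levels followed these members most closely were looked up for the 5 highest. Among 8102 genes, Defb48 was most like Adam28 (r = 0.84), a membrane disintegrin-metalloprotease, then Gm4846 (0.82) and Gm32017 (0.82). Defb15 was most like Pate13 (0.72), a small secreted protein gene, then the lipocalin Lcn5 (0.63) and clusterin, Clu (0.61). Defb20 was most like the cystatin Cst11 (0.66), then Teddm1a (0.62) and the glutamate transporter Slc1a1 (0.62). Defb47 was most like Teddm1a (0.57), Abcc4 (0.56) and Mfge8 (0.52). Defb41 was most like the sperm-maturation gene Adam7 (0.55), then Gm1110 (0.53) and A330093E20Rik (0.49). Adam28, Lcn5, Cst11 and Adam7 are on the segment marker lists used to name clusters.

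Other secreted host defence genes in the same epithelium were read from a list of 22, of which 21 were in the tables and 16 had enough UMIs. Of these 16, 13 were at least 2-fold higher in the epithelial nuclei, against 26.5% of all 16316 genes tested. The lysozymes Lyz1 and Lyz2 were lower. Spag11b, a beta-defensin-like gene outside the Defb names, stood at 2511 CPM, above any Defb gene, and Spag11a at 286. Wfdc8, a gene of the whey acidic protein family of protease inhibitors, stood at 1197, with 3687 in cluster 10 and 114 in cluster 3. Lcn2, the siderophore-binding lipocalin, was highest in the basal-like cluster at 2064. Bpi, which binds bacterial lipopolysaccharide, stood at 213 in cluster 8 and 179 in cluster 3, against at most 4.80 in clusters 6, 7 and 10. Of 5 genes for receptors linked to defensins, Tlr4 (9.87 against 96.3 CPM in the non-epithelial classes) and Tlr2 (1.24 against 18.2) were lower in the epithelial nuclei. Ccr6, Mc1r and Mc4r had 4, 1 and 0 UMIs there.

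Beta-defensin UMIs were also found in nuclei of other classes of this library. The non-epithelial classes together, 2389 nuclei with fewer than 2 of the 5 epithelial genes, held 5019 beta-defensin UMIs, or 535 CPM (521 to 550). The epithelial level was 8.80 times that (8.55 to 9.05). A beta-defensin UMI was found in 73.4% of these nuclei, at a median depth of 3207 UMIs, against the 98.6% of the epithelial nuclei. Thinned to 1000 UMIs, the shares were 38.3% (252 shallower nuclei left out) and 92.3% (15 left out), with means of 0.637 and 4.74 beta-defensin UMIs per nucleus. Of the 25 genes at the floor, all 25 were called at least 2-fold higher in the epithelial nuclei, against 26.5% of 16316 genes tested. A gene that reached the floor through the epithelial nuclei had to be present there, so that count is no support by itself. Without the mixed cluster 24 were called, since Defb45 then stood at 6.70 CPM against 6.29, a ratio of 1.07 (0.791 to 1.45). The ratios ran from 2.22 for Defb45 to 112 for Defb34, the last resting on 1 non-epithelial UMI (19.98 to 4438). Their median was 11.7.

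The amount per nucleus differed less between the other classes than the level in CPM did. Endothelial-like nuclei had 2.90 beta-defensin UMIs each, adipocyte-like 2.49, plasma cell-like 2.38, pericyte-like 2.08, adipose progenitor-like 2.05, lymphatic endothelial-like 2.02, macrophage-like 1.77 and T or NK-like 1.68. Epithelial nuclei had 39.2. Because the classes differ in depth, the same few UMIs gave a level of 390 CPM in adipocyte-like nuclei, whose median depth was 6375, and 1176 in plasma cell-like nuclei.

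**Figure D4:**
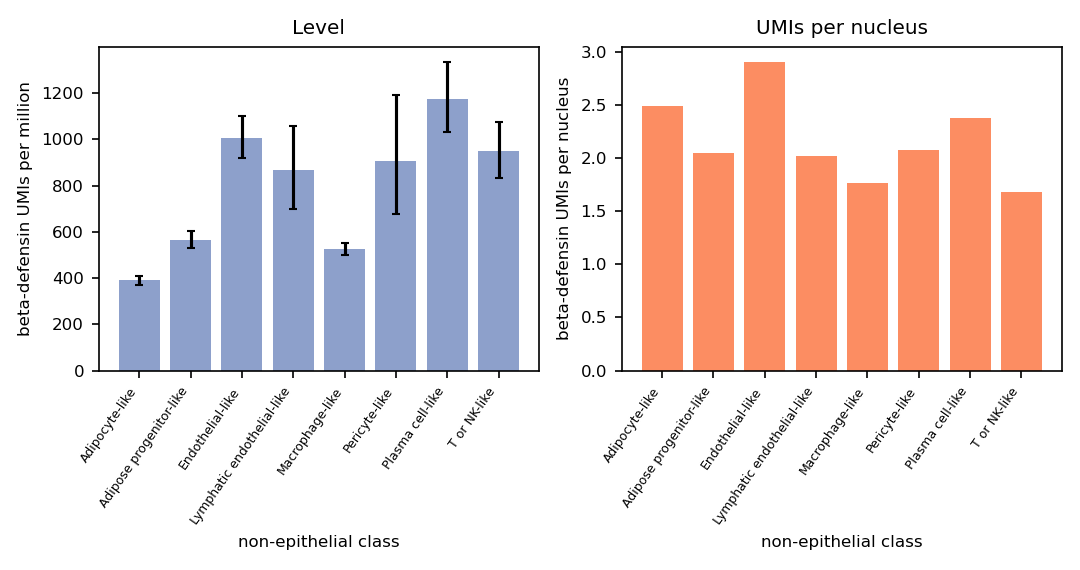
Summed beta-defensin level (left, CPM, bars are 95% counting intervals) and beta-defensin UMIs per nucleus (right) in the 8 non-epithelial classes of the library labelled BAT surgery. Levels ran from 390 to 1176, while UMIs per nucleus stayed between 1.68 and 2.90.

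The mixture of genes was similar in the other classes, and it was not the mixture of the epithelial nuclei. Defb20 gave 25.3% to 32.7% of the beta-defensin UMIs over the 8 classes and 13.7% in the epithelial nuclei. Defb25 gave 9.28% to 16.8% against 4.57%. Defb41 gave less, 1.92% to 8.01% against 13.3%, and Defb47 8.78% to 13.6% against 15.2%. Some ends of these ranges rest on few counts: the pericyte-like class held 52 beta-defensin UMIs and the lymphatic endothelial-like class 95. Gpx5 UMIs per beta-defensin UMI lay between 1.54 and 2.54 over the classes and at 1.13 in the epithelial nuclei. The same mixture appeared in the library's cluster led by Dcdc2a, where Defb20 gave 25.8% and nuclei had 1.71 beta-defensin UMIs each. In the library's basal-like cluster Defb20 gave 27.1%, Defb41 3.20% and Defb25 8.57%, with 5.89 beta-defensin UMIs per nucleus. The ratio of epithelial to non-epithelial level was accordingly low for Defb20 (4.50) and Defb25 (3.02), and higher for Defb41 (19.6) and Defb30 (16.6). Among genes of lower level, it was low for Defb45 (2.22), Defb2 (3.55) and Defb29 (4.15). It was higher for Defb13 (32.4, interval 22.9 to 47.4) and for Defb1 (21.1, 11.7 to 42.5), the last with 11 non-epithelial UMIs. Over the 24 described genes with a ratio, Spearman's rho between that ratio and the length of the gene on the chromosome, which ran from 698 bases (Defb25) to 18587 (Defb1), was 0.29, given as a description.

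**Figure D5:**
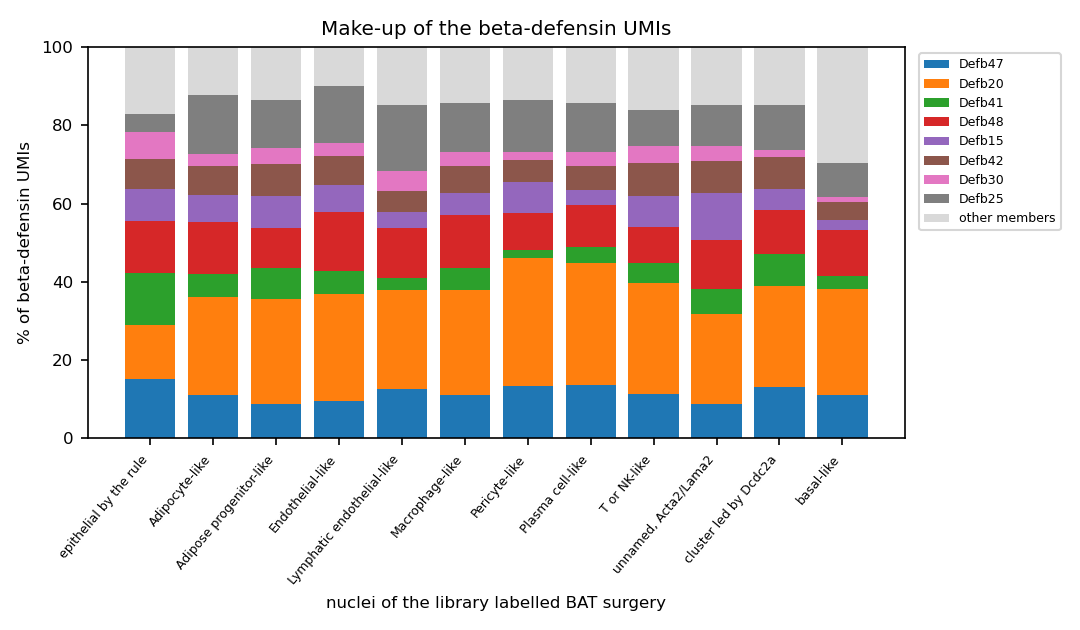
Share of the beta-defensin UMIs given by the 8 highest genes and by all others, in epithelial nuclei, in the 8 non-epithelial classes and in 3 further clusters of the library. Defb20 takes 13.7% in epithelial nuclei and between 25.3% and 32.7% in the non-epithelial classes.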

How the data were processed

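Nuclear RNA was profiled with a SeekGene single-cell protocol, per the labels. The molecule is labelled nuclear RNA, while their protocol ends in a suspension of viable cells. The authors deposited UMI count tables, 1 per library, of raw counts per gene and barcode. Build mm10 and Seurat 4.4.0 and 4 come from the submitters' processing notes. No source used here names the aligner, the counting program or its strand setting. Gene positions are from GENCODE M21 (GRCm38).

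Nuclei with at least 500 UMIs, 300 genes and under 10% mitochondrial UMIs were kept (4 of 9946 removed in BAT surgery), and 783 doublets (7.88%) were removed there with the Scrublet method in scanpy 1.11.5, at an expected rate of 6%. In both sham libraries, where the automatic threshold marked under 0.5% or over 20%, the highest-scoring 6% were taken. Leiden clusters were built on 30 principal components of 2000 variable genes with 15 neighbours, at resolution 1.0 (whole library) or 0.5 (epithelial nuclei, no Defb gene). A cluster was named from a marker list whose mean, taken on logs, was at least 4-fold over the median cluster. At least 3 of the list's markers had to be 2-fold over that median and in 5% of the cluster's nuclei. A cluster stayed unnamed where an unrelated class scored 60% as high with 60% of its own markers past those cuts, or held more of the leading genes. Shallow clusters with no listed gene leading, and clusters led by mitochondrial genes, also stayed unnamed. Levels are CPM, UMIs per 1000000 of the set's total, with exact Poisson intervals, and ratios have exact conditional binomial intervals. A gene was called at 50 UMIs or more, a 2-fold ratio and an interval above 1. That rule was checked on simulated counts with counting error only, so the check does not cover differences between nuclei or clusters. A cluster share of 50% was the other call. With 1 library per group no test was possible.

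Genes described singly were those with at least 50 UMIs, and outside the family the fixed lists and the 3 genes of highest r for each of the 5 highest members. The members and lists were chosen with earlier results of these data known. Alternatives changed the epithelial rule, doublets, depth, floor, clustering and scaling.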

Additional observations from a re-analysis of the deposited data

Results flagged for a closer look

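In the library labelled BAT surgery, 3 of the 4 clusters that took no name, and so counted in no non-epithelial class, stood out. Their nuclei that met the epithelial rule are part of the epithelial set, and the rest were in no comparison. All 3 held beta-defensin UMIs above the highest named non-epithelial class (1176 CPM). A shallow cluster of 850 nuclei led by Acta2, Lama2, Myl9 and Myh11, with a median of 1762 UMIs, held 7297 CPM and 26.6 beta-defensin UMIs per nucleus, of which Defb20 gave 23.0% and Defb25 10.4%. By the epithelial rule, 24.6% of its nuclei were epithelial. A cluster of 846 nuclei led by Lin7a, Gfra1 and Grip1 held 3066 CPM, and 62.4% of its nuclei were epithelial by the rule. A cluster of 126 nuclei led by Zfpm2, Slit3 and Flrt2, with Wt1 among its leading genes, held 1346 CPM, and 9.52% of its nuclei were epithelial by the rule. What these clusters are was not tested. Nuclei that failed the rule in clusters named as epithelial were also in neither set. The rule was met by 67.2% of the nuclei of the largest cluster, which was initial segment-like, and by 28.0% of those of the cluster led by Dcdc2a.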

How the results depend on the processing

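The epithelial sum of 4708 CPM was 4583 with nuclei holding at least 1 of the 5 epithelial genes, 4845 with at least 3, 4637 with doublets kept, 4739 thinned to 1000 UMIs, 4748 as a mean over nuclei and 5427 without the 20 most abundant genes in the total. Its ratio to the non-epithelial classes, 8.80, was 9.49 and 8.52 with the looser and stricter rule, 6.23 with doublets kept, 7.44 thinned, 9.95 with at least 2000 UMIs per nucleus and 9.75 against nuclei with none of the 5 genes. The count of 3 genes with at least 50% of their level in 1 cluster was 6 with either rule, 6 thinned, 9 at resolution 0.2 and 0 at a share of 80%. Chosen after seeing the data, leaving out the mixed cluster gave a sum of 4565, a ratio of 8.53 and 24 genes called 2-fold higher in place of 25, and leaving out clusters under 50 nuclei gave a count of 6. The cause of these moves was not tested. The number of genes at the floor lay between 18 (thinned) and 31 (floor of 20 UMIs), and the median r between 0.0037 (thinned) and 0.052 (presence or absence).

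No paired analysis was possible because each group has 1 library and no result comes from a test between groups. Intervals cover counting error, not differences between animals. Genes under the floor cannot be placed in clusters at this depth, and clusters 5 and 12 hold 33 and 17 nuclei. Genes of 1 family with similar sequence may share reads.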
